A study of Homo sapiens with 2 samples.

Results

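The 10 genes described here are epithelial keratins (KRT7, KRT8, KRT18 and KRT19), tight junction genes (CLDN1, OCLN and TJP1), desmosome genes (DSP and JUP) and the cell-surface mucin gene MUC1. They were picked by name for their role in epithelial cells, and their symbols were matched to the gene identifiers in the files. All 10 were among the 19316 genes listed in either library, and 9 were among the 14377 genes called measured, at 1 FPKM or more in at least 1 library. FPKM is a read count scaled to transcript length and library size, so levels of different genes can be compared on it.

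RNA came from SNU449, an established cell line labelled as liver cancer, 7 days after lentivirus delivered a short hairpin RNA (shRNA) against the Wnt receptor gene FZD2 or a negative control shRNA. Both groups therefore carried a lentiviral shRNA, each group had 1 library, and no untransduced cells were analysed here. A single hairpin label in a single line limits the groups as a model, and with 1 library each no difference could be tested against replicate error. The growth protocol calls the cells prostate, at odds with the cell type label. The FZD2 shRNA library, called the knockdown library from here on, held 8234592 expected counts and the control library 8436870, and intervals below are 95% intervals that cover counting error only. The targeted gene FZD2 was at 15.76 FPKM (knockdown) and 59.45 FPKM (control), 3.61-fold lower on the FPKM + 1 scale. Its expected counts, 503.28 and 1949.91, were not whole numbers, which is taken below as a sign of shared reads.

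Keratins are the intermediate filament proteins of epithelial cells. Each filament is built from pairs of a type I and a type II chain, so KRT18 (type I) pairs with KRT8 (type II) in simple epithelia, where KRT7 (type II) and KRT19 (type I) mark ducts. Hepatocytes are known for KRT8 and KRT18 alone, and bile duct cells for KRT7 and KRT19 in addition. Claudins and occludin span the membrane at tight junctions and are tied to actin by the scaffold ZO-1, which TJP1 encodes. Desmosomes anchor keratin filaments through plakoglobin (JUP) and desmoplakin (DSP). Loss of these proteins is one readout of epithelial-mesenchymal transition, in which vimentin rises.

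Keratin transcripts are hard to count because the genome holds many processed copies of KRT8 and KRT18. RefSeq names 52 KRT8 and 68 KRT18 pseudogenes, of which the files listed 1 each. The expected counts of KRT7, KRT8, KRT18 and OCLN were not whole numbers in at least 1 library, taken here as a sign that reads were divided with other genes or copies (called shared reads). The other 6 genes had whole counts in both libraries. In GENCODE release 29 transcripts, 52.5% of the 50-base windows of KRT18 and 37.1% of those of KRT8 also occurred in other genes, 43 and 34 of them pseudogenes. For KRT18, 326 of 1371 windows lay in transcripts of the neighbouring gene KRT8, and at 100 bases all shared windows of KRT18 did. The share was 10.8% for KRT7, mostly in its antisense gene KRT7-AS, and 9.38% for OCLN, mostly in OCLNP1. KRT7-AS was unlisted in both libraries. Whether counting used strand is unknown here, so reads of KRT7 and KRT7-AS may not be told apart. The share of windows was 1.79% for KRT19 and 0% for CLDN1, TJP1, DSP, JUP and MUC1. With 100-base windows KRT18 was at 18.4%, KRT7 at 7.67%, KRT8 at 6.73%, OCLN at 6.66% and the other 6 genes at 0%.

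**Figure D1:**
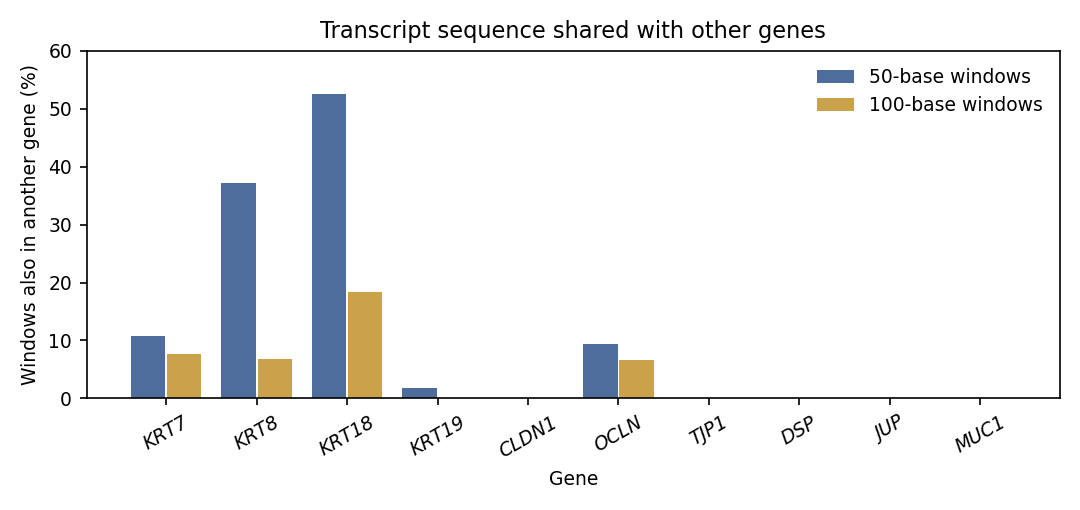
Share (%) of all 50-base (blue) and 100-base (ochre) windows of 1 GENCODE transcript per gene that also occur, on either strand, in a transcript of another gene. At 50 bases KRT18 and KRT8 stand highest; at 100 bases KRT18 does, with KRT7, KRT8 and OCLN between 6.66% and 7.67%. CLDN1, TJP1, DSP, JUP and MUC1 have none at either size.

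The stretches below are shown because they carry the likeness of KRT18 and OCLN to their copies, and the unlikeness of KRT18 and KRT19. They are coding sequence from GENCODE release 29 transcripts, read 5′ to 3′, with bases counted from 1 at the A of the start codon. Capitals mark the bases at which the lines of a pair differ. KRT18 and its pseudogene KRT18P11 differ at 3 of 120 bases (C881T, G968A and T971C, KRT18 first) and are identical over 86 bases in a row.
KRT18, coding bases 865 to 984: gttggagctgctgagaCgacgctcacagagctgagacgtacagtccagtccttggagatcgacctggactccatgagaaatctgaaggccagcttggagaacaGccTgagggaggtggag
KRT18P11, same bases: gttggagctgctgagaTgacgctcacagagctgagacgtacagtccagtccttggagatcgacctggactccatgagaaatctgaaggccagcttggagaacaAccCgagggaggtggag
OCLN and OCLNP1 are identical over 324 bases in a row, of which 120 are shown on 1 line for both, with no capitals because no base differs.
OCLN and OCLNP1, OCLN coding bases 891 to 1010: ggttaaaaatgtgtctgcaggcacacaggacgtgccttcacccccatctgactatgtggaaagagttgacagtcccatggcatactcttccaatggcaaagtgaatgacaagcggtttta
KRT18 and KRT19, both type I, were 61.5% identical over 1183 aligned coding bases. Their most alike 60 bases without a gap differ at 10 and are identical over at most 17 in a row, shorter than the windows above.
KRT18, coding bases 247 to 306: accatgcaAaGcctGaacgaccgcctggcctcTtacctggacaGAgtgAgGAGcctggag
KRT19, coding bases 247 to 306: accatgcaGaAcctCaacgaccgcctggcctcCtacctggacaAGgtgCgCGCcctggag
The type II pair KRT7 and KRT8 was 72.0% identical over 1388 aligned coding bases, against 52.6% to 54.9% for pairs of unlike type.

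The 10 genes spanned 3 orders of magnitude in FPKM, with the same 4 genes at the top and KRT19 at the bottom in both libraries. In the control library KRT7 was highest, at 746.82 FPKM, followed by KRT18 at 320.79 and KRT8 at 172.66. CLDN1 was at 68.41 FPKM, TJP1 at 15.71, JUP at 11.79 and OCLN at 6.41. DSP at 2.13, MUC1 at 1.81 and KRT19 at 0.72 FPKM were lowest. The 3 abundant keratins lay at or above the 97.5th percentile of measured genes in each library, whereas 20.8% of measured genes lay at or below DSP in the control and 12.3% in the knockdown library. In the knockdown library JUP and OCLN stood above TJP1, and MUC1 above DSP.

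**Figure D2:**
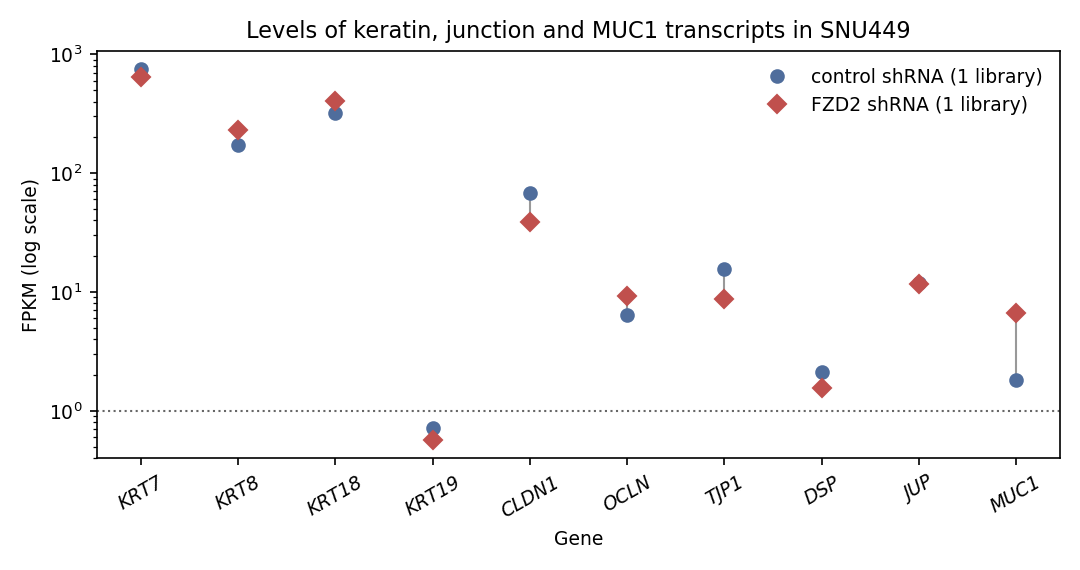
FPKM (log scale) of the 10 genes in the control shRNA (blue circles) and FZD2 shRNA (red diamonds) libraries, 1 library each, so there are no error bars. The dotted line is 1 FPKM; KRT7 is at the top, KRT19 lies under the line in both libraries, and MUC1 shows the widest gap.

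Sizes below are log2 ratios of FPKM + 1, FZD2 shRNA over control, and a gene was called at 2-fold (a log2 ratio of 1 in size). Count ratios and their intervals are also written on the log2 scale, where a ratio of 1 is 0. Values written as one level against another give the knockdown library first. This scale understates differences of genes at low FPKM. Of the 9 measured genes, 1 was at least 2-fold above the control (MUC1) and 0 were at least 2-fold lower. Across all measured genes 15.2% were higher and 7.41% lower by the same rule, 22.6% in all. Among genes with shared reads the shares were 29.7% and 3.71%, and among genes without them 4.19% and 10.2%. The median of the 9 was -0.02, beside -0.004 for all measured genes. The count ratio's interval lay above 1 for 4 of the 9 and below 1 for 4, but it excluded 1 for 72.3% of all measured genes (35.5% above, 36.8% below). Variation between cultures was not measured. In RNA from whole cultures, fewer cells of a type and less RNA per cell cannot be told apart.

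**Figure D3:**
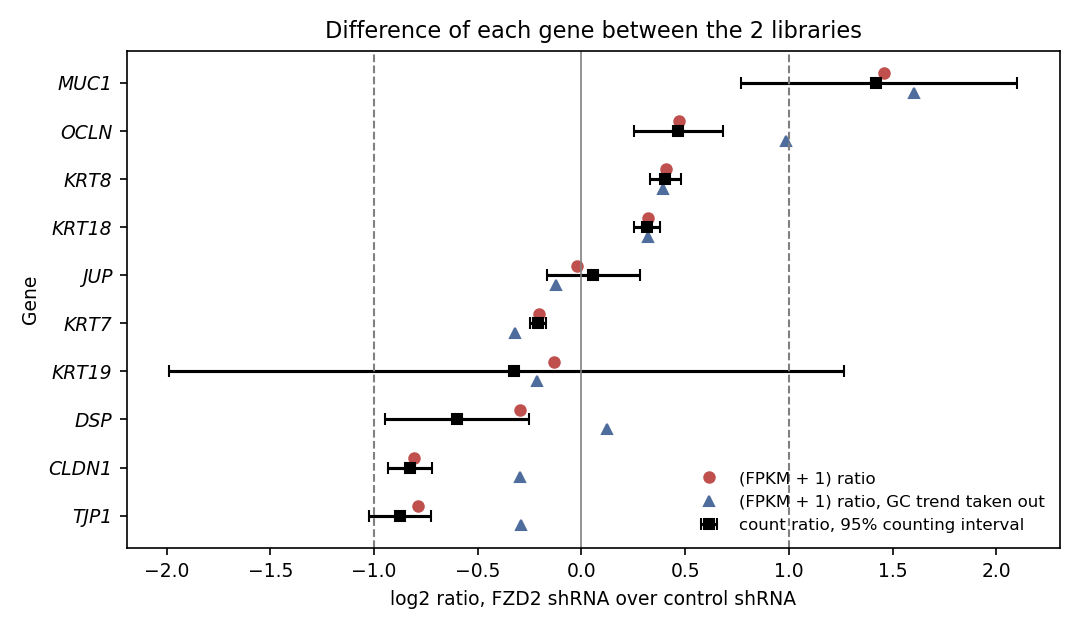
Log2 ratio of each gene, FZD2 shRNA over control: expected counts scaled to library totals with their 95% counting interval (black squares), FPKM + 1 (red circles) and FPKM + 1 with the GC trend taken out (blue triangles). Dashed lines mark 2-fold; the points of MUC1 alone lie beyond one, and the triangles of CLDN1, TJP1, DSP and OCLN lie to the right of their circles.

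Among the keratins, the KRT8 and KRT18 partners were both somewhat higher in the knockdown library and KRT7 somewhat lower, none by 2-fold. KRT8 was at 228.95 FPKM with knockdown and 172.66 in the control (log2 ratio 0.41), with 3462.89 and 2680.35 expected counts and a count ratio of 0.40 (0.33 to 0.48). KRT18 was at 401.04 against 320.79 FPKM (0.32), from 4734.73 and 3898.88 counts. KRT7 was at 647.62 against 746.82 FPKM (-0.21), from 9347.9 and 11071.89 counts. These 3 genes had shared reads, a class of genes whose median was 0.48, beside -0.25 for genes without them. KRT8 and KRT18 thus lay below the median of their class and KRT7 lower still, with 46.9%, 43.7% and 23.3% of that class at or below their values. The part that divided reads played in the 3 values was not tested.

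KRT19 was near 0 in both libraries. It was at 0.57 FPKM from 7 reads with knockdown and 0.72 FPKM from 9 reads in the control, a count ratio of -0.33 (-1.99 to 1.27), so a difference of 2-fold in either direction was not detectable at this depth. Its counts were whole.

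The keratins were also set against one another within each library. The FPKM of KRT18 over that of KRT8 was 1.75 with knockdown and 1.86 in the control. KRT7 over KRT8 was 2.83 and 4.33. Of the summed FPKM of 33 keratin genes (1332.33 and 1313.35), KRT7 made up 48.6% with knockdown and 56.9% in the control, KRT18 30.1% and 24.4%, and KRT8 17.2% and 13.1%. Type II chains summed to 2.17 times the type I chains with knockdown and 2.88 times in the control. KRT7 thus held the largest share in both libraries and a smaller one in the knockdown library; these shares have no replicate error and rest on genes with shared reads.

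**Figure D4:**
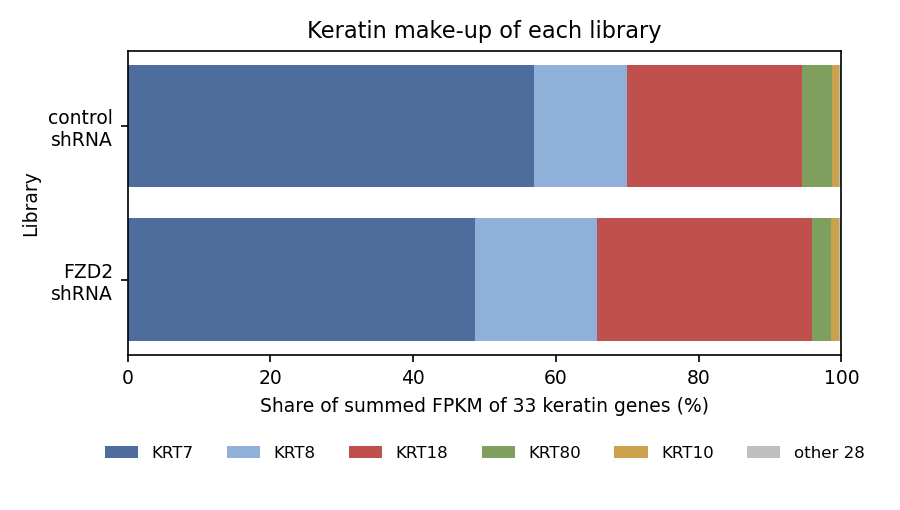
Share (%) of the summed FPKM of 33 keratin genes in each library, 1 library each. KRT7, KRT18 and KRT8 make up 94.4% in the control and 95.9% in the knockdown library, and the KRT7 block is 56.9% and 48.6%; KRT80 and KRT10 follow, and the other 28 form a sliver at the right edge.

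Most other keratins were unlisted or low. Of 18 further type II keratins in the list, which leaves out the hair keratins, KRT80 alone was measured, at 35.68 against 55.75 FPKM (-0.63, shared reads), and the other 17 were unlisted in both libraries, including the basal keratin KRT5. The hair keratin KRT81, outside the list and the summed FPKM, was at 5.82 against 4.89 FPKM. Of 11 further type I keratins, KRT10 was at 14.94 against 12.42 FPKM (0.25) and KRT15 at 2.41 against 3.11 (-0.27). The basal partner KRT14 was at 0.66 against 0.72 FPKM. A count of 0 allows up to 3 reads, or 3.64e-05% and 3.56e-05% of the library totals. Of 7 plakins and other keratin linkers, 5 were measured and 0 reached 2-fold (median -0.56, or -0.22 with the GC trend taken out). DST was at 25.45 against 26.95 FPKM (-0.08) and TCHP at 7.12 against 6.33 (0.15, shared reads). PLEC, which encodes the linker plectin, was at 24.31 against 36.2 FPKM (-0.56, shared reads), MACF1 at 16.52 against 26.69 (-0.66) and periplakin (PPL) at 10.55 against 16.59 (-0.61).

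The 3 tight junction genes differed in direction, none by 2-fold. CLDN1, the claudin that seals epidermal and bile canalicular junctions, was at 38.65 FPKM with knockdown and 68.41 in the control (log2 ratio -0.81), from 1110 and 2018 reads. TJP1 was at 8.68 against 15.71 FPKM (-0.79), from 556 and 1044 reads. They were 1.75-fold and 1.73-fold lower, short of the 2-fold rule, with whole counts. At a 1.5-fold limit CLDN1 and TJP1 were the only ones of the 9 measured genes lower and MUC1 the only one higher, beside 21.7% and 26.1% of all measured genes. The count ratio was -0.83 (-0.93 to -0.72) for CLDN1 and -0.87 (-1.03 to -0.72) for TJP1. Among measured genes without shared reads, 17.8% were at or below the value of CLDN1 and 18.8% at or below that of TJP1. OCLN, with shared reads, was at 9.28 against 6.41 FPKM (0.47), from 422.35 and 312.96 counts, and its pseudogene OCLNP1 was unlisted in the knockdown library and at 8.04 counts in the control.

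Log2 ratios moved with base composition. Among measured genes without shared reads, split into 5 equal classes by GC content, the median log2 ratio was -0.53 in the lowest class (27.5% to 42.2% GC) and 0.12 in the highest (59.98% to 85.5%). CLDN1 and OCLN transcripts had a GC content of 41.5% and 41.3%, and TJP1 44.3%. After this trend was taken out (GC-adjusted values below), CLDN1 was at -0.30, TJP1 at -0.29 and OCLN at 0.98. The trend was fitted to genes without shared reads, so it is not the baseline of genes that have them. OCLN is such a gene, and 49.5% of measured genes with shared reads were at or below its unadjusted value. The abundant keratins, at 59.5% to 62.9% GC, had GC-adjusted values of 0.39 (KRT8) and 0.32 (KRT18), close to those above, and -0.32 (KRT7), against -0.21 before. Taking the trend out raised the median of all measured genes by 0.23. The share of all measured genes past 2-fold on the GC-adjusted scale was not counted. GC-adjusted counts are therefore left out for the junction lists below, and those given elsewhere have no share beside them. What sets the GC trend was not tested.

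CLDN1 was the leading claudin in both libraries, with 39.7% of the summed FPKM of 21 claudin genes with knockdown and 43.8% in the control. CLDN2, a cation-pore claudin, followed with 20.1% and 32.0%. Of 20 claudins other than CLDN1, 12 were measured, 1 was at least 2-fold lower and 0 were higher (median 0.20). The median was -0.24 for the 7 without shared reads. GC-adjusted, CLDN16 was at 1.04, against 0.52 before, and CLDN18 at 1.29, against 0.81. Both had shared reads, so the trend is not their baseline. The lower one was CLDN2, at 19.59 against 49.98 FPKM from 479 and 1254 reads (-1.31, GC-adjusted -1.05). CLDN18 was at 1.21 against 0.26 FPKM (0.81, shared reads), and CLDN4 and CLDN7, claudins of many simple epithelia, were at most 0.07 FPKM.

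Of 18 tight junction scaffold and polarity genes other than TJP1, 15 were measured, 1 was lower and 1 higher, with a median of -0.04. GC-adjusted, the median was 0.18, beside 0.23 for all measured genes. The higher one was PARD6G, a polarity adaptor, at 15.5 against 3.45 FPKM (1.89, shared reads). The most abundant was PARD3, at 120.08 against 77.45 FPKM (0.63), and TJAP1 was at 3.18 against 7.31 (-0.99).

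Of 9 other membrane proteins of tight junctions, 6 were measured and 4 were at least 2-fold higher, with a median of 1.23. The occludin relative MARVELD3 was at 33.59 against 6.22 FPKM (2.26), the junctional adhesion molecule gene F11R at 13.22 against 4.31 (1.42), JAM2 at 19.75 against 7.66 (1.26) and the adhesion receptor gene CXADR at 27.62 against 11.47 (1.20). All 4 had shared reads, a class in which 29.7% of genes were higher by this rule. The measured gene of this list without them, LSR, was at 4.49 against 2.82 (0.52). With a pseudocount of 5 FPKM, F11R (0.97), JAM2 (0.97) and CXADR (0.99) were short of 2-fold.

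The desmosome genes DSP and JUP did not reach 2-fold. JUP, shared between desmosomes and adherens junctions, was at 11.58 FPKM from 330 reads with knockdown and 11.79 FPKM from 325 reads in the control (log2 ratio -0.02). Its count ratio was 0.06 (-0.17 to 0.28), so a 2-fold difference lay outside the counting interval. DSP was at 1.55 FPKM from 116 reads and 2.13 FPKM from 180 reads (-0.30), with a count ratio of -0.60 (-0.95 to -0.25). The authors' transcript length for DSP was 8924.44 bases with knockdown and 9802 in the control, which narrows the FPKM difference relative to the count difference by 0.14 on the log2 scale. The GC-adjusted values were 0.13 for DSP and -0.12 for JUP, and JUP was at 0.13 in TPM, so both signs depend on the scale.

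Of 12 other desmosome genes, 9 were measured, 1 was higher and 1 lower, with a median of 0.09. PERP, a desmosome membrane protein and p53 target, was highest in both libraries, at 37.71 against 70.62 FPKM (-0.89), followed in the control by PKP4 (30.93 against 25.7, 0.26) and the cadherin gene DSG2 (24.19 against 24.75, -0.03, shared reads). DSG3, a cadherin of stratified epithelia, was at 16.67 against 2.09 FPKM (2.52) and DSC2 at 2.86 against 7.89 (-1.20, GC-adjusted -0.68). Both called genes had shared reads.

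MUC1, a heavily glycosylated mucin of the apical surface, was the gene beyond 2-fold. It was at 6.71 FPKM with knockdown and 1.81 FPKM in the control, a log2 ratio of 1.46 or 2.74-fold. The difference rested on 73 and 28 reads, with a count ratio of 1.42 (0.77 to 2.10), so that the counting interval reached below 2-fold. Both counts were whole, and 98.8% of measured genes without shared reads were at or below its value. Its value was 0.78 with a pseudocount of 5 FPKM, short of 2-fold, and 1.60 GC-adjusted.

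A part of the MUC1 difference came from the transcript length used for FPKM. The files listed 20 RefSeq transcripts for MUC1 and a length of 1329.35 bases in the knockdown library against 1826 in the control. Without a pseudocount, the FPKM ratio was 1.89 on the log2 scale, of which 1.42 was the count ratio and 0.47 the length. By contrast, the length term was at most 0.14 in size for the other 9 genes, and their listed lengths were equal in both libraries for KRT7, KRT19 and CLDN1. No other mucin reached 1 FPKM among 9 further membrane mucins (0 of 9 measured, MUC20 highest at 0.52 against 0.34) and 6 secreted mucins (0 of 6).

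Neighbouring lists of junction genes were mixed. Of 11 adherens junction genes, 9 were measured, 1 was higher and 1 lower, with a median of -0.23 (0.03 GC-adjusted). AFDN, the actin-binding adaptor afadin, was at 15.31 against 5.23 FPKM (1.39, shared reads, or 0.99 with a pseudocount of 5), and NECTIN3, an immunoglobulin-like adhesion molecule, at 5.04 against 11.82 (-1.09, GC-adjusted -0.59). CTNNA1, alpha-catenin, was highest in the control, at 75.67 against 103.94 (-0.45, shared reads), and NECTIN2 was highest in the knockdown library, at 96.92 against 59.46 (0.70). CDH1, E-cadherin, was at 1.68 against 1.32 (0.21, shared reads). Of 7 hemidesmosome genes, 6 were measured and 1 was lower, ITGA6, at 10.94 against 24.49 FPKM (-1.09, GC-adjusted -0.58). CD151, a tetraspanin, was at 136.58 against 67.9 FPKM, just short of 2-fold, but 1.16 in TPM. Of 11 connexins, 3 were measured and GJA1 was lower, at 13.36 against 30.86 (-1.15, GC-adjusted -0.64), with a median of -0.39 (0.08 GC-adjusted).

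Most genes that define epithelial identity were near 0 in both libraries beside the abundant keratins. Of 19 listed, 4 were measured and 0 reached 2-fold (median 0.06). The transcription factor gene ELF3 was at 62.13 against 56.25 FPKM (0.14), AP1M2, a sorting adaptor of polarized cells, at 16.18 against 13 (0.30) and the splicing factor gene ESRP2 at 4.98 against 5.09 (-0.03). EPCAM was at 0.28 against 0.2 FPKM, and 7 genes, among them GRHL2, OVOL1 and RAB25, were unlisted in both. Vimentin, the mesenchymal filament gene VIM, was at 2409.71 against 3090.37 FPKM (-0.36, GC-adjusted -0.16, or -0.20 in TPM). That was 1.81 times the summed keratin FPKM with knockdown and 2.35 times in the control. VIM had no shared reads, whereas KRT7, KRT8 and KRT18 did, and the class medians were -0.25 and 0.48. The part of this difference between classes in the change of the ratio was not tested. Of 13 intermediate filament genes other than keratins, 8 were measured and 3 were lower by 2-fold, the lamin genes LMNB1 (12.42 against 44.33, -1.76) and LMNB2 (13.16 against 28.87, -1.08, or -0.94 in TPM) and the neuronal filament gene INA (6.19 against 18.55, -1.44).

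**Figure D5:**
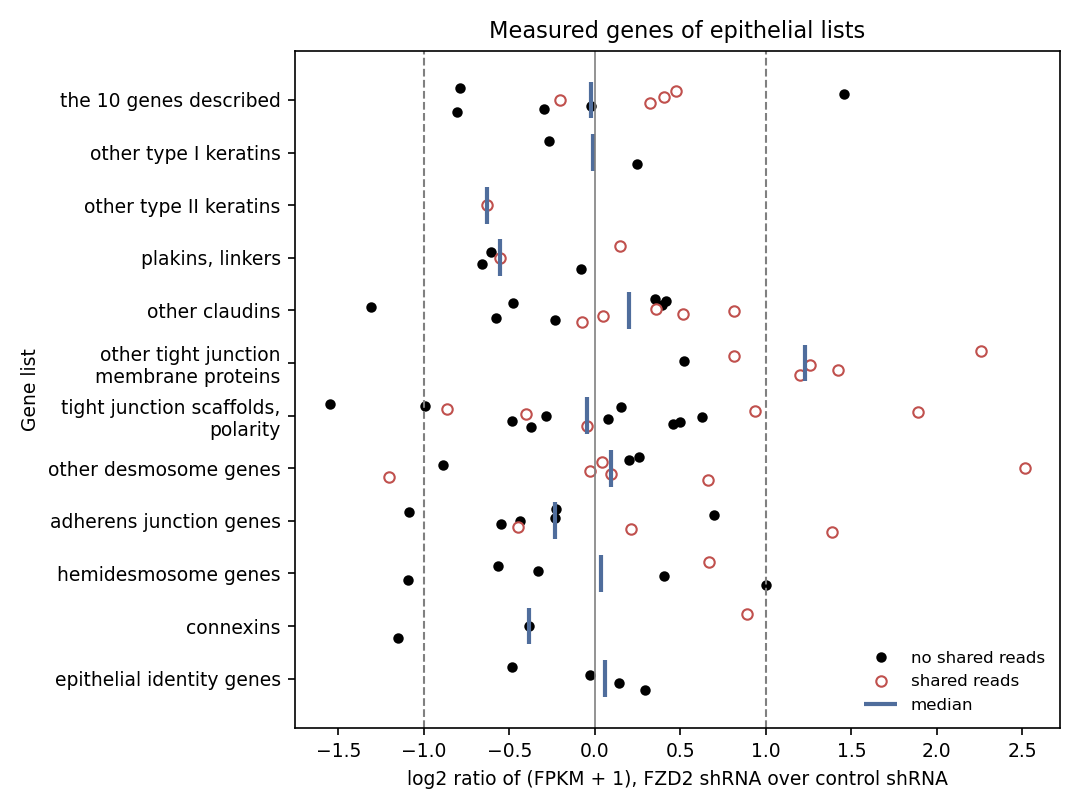
Log2 ratio of (FPKM + 1) for each measured gene, by list, 1 library per group; black points have no shared reads, open red points do, and blue bars are list medians. Dashed lines mark 2-fold: the points to the right of the upper line are open circles except MUC1, and the points to the left of the lower line are black except DSC2.

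In the promoters of 7 of the 10 genes that could be matched in RefSeq sequence (GRCh38.p14, 250 bases before to 50 after the start), the E-box CAGGTG, read on both strands, was found in 4: OCLN, TJP1, DSP and MUC1. The E-box occurs in 20.6% of 27305 promoters of that length. Apart from KRT8 (50.7% GC), the 7 promoters had 65.3% to 77% GC, beside a median of 58.3% for all promoters. No background of like GC content was taken, so no enrichment is read from 4 of 7. KRT8, CLDN1 and JUP had no match in this window. Genes with and without the motif lay on both sides of 0.

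Markers of other cell types gave the setting of these values. Of 10 hepatocyte markers 0 were measured, with ALB at most 0.05 FPKM, APOB and TTR unlisted in both, and summed levels of 2.13 and 1.68 FPKM. Of 8 cholangiocyte markers 4 were measured (summed FPKM 475.25 against 670.06), of which 1 was lower (0 in TPM, GC-adjusted or with a pseudocount of 5). SPP1 was at 387.69 against 560.73, SOX9 at 15.9 against 24.53 and SLC4A2 at 56.07 against 52.52 (0.09). CFTR, AQP1 and ONECUT1 were at most 0.18 FPKM, and SCTR was unlisted in both. Of 8 prostate markers 3 were measured (9.88 against 7.88), and KLK2 and KLK3 were unlisted. Of 10 markers of fibroblasts and stellate cells, 6 were measured (343.96 against 437.11), nearly all from COL1A1 and COL1A2. Of 10 leukocyte markers 4 were measured (94.26 against 27.79), of which LYZ, with shared reads, was higher at 71.47 against 12.31 (2.44), and CD3E, CD3D, MS4A1 and CSF1R were among those unlisted. Of 8 endothelial markers 2 were measured (3.79 against 1.02), both with shared reads, of which PECAM1 was higher at 2.33 against 0.41 (1.24, or 0.44 with a pseudocount of 5), and VWF was unlisted. Their part in the keratin and junction values was not tested.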

How the data were processed

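RNA-seq gene tables of 2 libraries were used. RNA with poly(A) tails was captured on oligo(dT) beads and copied from random primers, per the labels' protocols. The submitters' processing notes name HISAT, Bowtie2 and hg19. The counting program, its annotation and its use of strand are details not given in the sources used here. Per the file headers, the authors deposited an expected count (estimated reads per gene, not normalized), an FPKM value scaled by the authors to length and library size, and a length in bases for each gene; genes at 0 were unlisted. The reference was of another build, so no coordinates are given.

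The members and the 20 other gene lists were chosen with earlier results of these data known. The main measure was log2 of FPKM + 1, FZD2 shRNA over control, for genes of at least 1 FPKM in either library. No condition was tested, since each group held 1 library. Count intervals (95%) are exact conditional binomial, on each expected count, rounded to a whole number, with library totals of 8234592 and 8436870. They take reads as independent, which PCR copies are not. A count was whole within 0.001. GC content was the mean over GENCODE release 29 transcripts matched by RefSeq accession, else by gene identifier (97.2% of measured genes), and its trend a lowess fit (fraction 0.3) to genes without shared reads. The genes named were FZD2, the members, and from each list the genes with the largest log2 ratios and the highest level. A few genes that this rule names are not reported here and are counted only. Others, such as CDH1, CLDN16, KRT81, KRT14, CLDN4, CLDN7 and unlisted genes, were named after their values were seen, and the family shares were added then too. Shared windows were exact matches on either strand. The stretches printed were limited to those with no 25-base match to a chromosome 8 transcript. The interval and the 2-fold rule were run on simulated independent Poisson counts, scaled to library totals in place of FPKM. Such counts hold no variation between cultures, so the run checked the code only. Tools were Python 3.11.15, pandas 2.3.3, SciPy 1.17.1, statsmodels 0.14.6, Biopython 1.88, matplotlib 3.10.9 and, for TMM factors, edgeR 4.0.16.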

Additional observations from a re-analysis of the deposited data

How the results depend on the processing

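Under 12 of the 13 alternatives planned, 0 or 1 of the measured genes was higher by the rule in force, and MUC1 was the gene in each case where it was 1. The count was 0 with a pseudocount of 5 FPKM and with a 4-fold limit. A counting interval that excludes 1 gave 4 higher and 4 lower, and a 1.5-fold limit gave 2 lower (CLDN1 and TJP1), beside 21.7% of all measured genes. The median of -0.02 became 0.15 with a filter of 5 FPKM, 0.13 in TPM, 0.13 with the GC trend taken out and -0.30 for genes without shared reads. In TPM the median of all measured genes shifted by 0.14, because the summed FPKM differed between libraries (568410 and 634707), so JUP at 0.13 and the median lay at that of all genes. With the GC trend taken out, all measured genes shifted by 0.23. Over the scale alternatives CLDN1 ranged from -0.82 to -0.30, TJP1 from -0.86 to -0.29, KRT8 from 0.39 to 0.56, KRT18 from 0.31 to 0.48, KRT7 from -0.32 to -0.05, OCLN from 0.32 to 0.98, DSP from -0.57 to 0.13, JUP from -0.12 to 0.13 and MUC1 from 0.78 to 1.83. KRT19, not measured by the main rule, ranged from -0.29 to -0.04. No paired analysis was possible because each group had 1 library, and no replicate could be left out. Keratin shares limited to genes with whole counts were not run, since KRT7, KRT8 and KRT18 all drop out. Depth limits KRT19 and MUC1 most.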
